A study of Drosophila melanogaster with 6 samples.

Results

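Autophagy genes were followed in Drosophila S2 cells given fragments of apoptotic cells. The genes were those whose array symbol begins with Atg and a digit, joined by 12 named genes of the lipid kinase complex, of cargo recognition and of fusion with the lysosome. Of 32 symbols, 31 had a probe set of their own, 1 for each gene, among the 18769 probe sets and 11982 genes tested, and Syx17 was not analysed here. S2 is a macrophage-like line established from Drosophila embryos, and both groups were cultures of this line held for 1 h at 25 °C in medium with 1% serum. The 3 control cultures received medium alone. The 3 others received 25 fragments per cell, pelleted from S2 cultures that had spent 24 h in cycloheximide, an inhibitor of protein synthesis, at 1.5 µg/ml. All cultures were taken off the dish with trypsin and EDTA before RNA was prepared for the arrays.

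Autophagy encloses cytoplasm in a double membrane, the autophagosome, and delivers it to the lysosome for breakdown. A kinase complex around Atg1 starts the process, a lipid kinase complex around Pi3K59F (Vps34) marks the membrane with phosphatidylinositol 3-phosphate, and ubiquitin-like conjugation systems attach Atg8 to lipid. SNARE proteins and tethers then join the closed autophagosome to the lysosome. Part of the same machinery acts on phagosomes in phagocytes of other species, where Atg8 homologues are attached to the phagosome membrane.

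The deposited values were log2 values, 1 for each probe set and array. A probe set whose values spanned less than 0.01 log2 units over the 6 arrays is called flat, and such a probe set cannot show a change. Of the 31 autophagy genes, 7 (22.6%) were flat, against 61.4% of all tested probe sets, and 24 varied. The flat genes were Atg6, Pi3K59F, Vps15, Atg9, Atg4b, Atg10 and Atg12. A flat value says nothing on whether the gene was expressed.

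Few autophagy genes passed the test after 1 h with fragments. In the limma fit over all probe sets, 0 of the 31 genes passed an adjusted p of 0.05, where 0.304% of all tested probe sets passed (0.0533% higher and 0.250% lower). Before adjustment, 6 of the 31 (19.4%) had a p under 0.05, against 10.8% of all tested, most of which were flat. Among the varying probe sets alone it was 5 of 24 (20.8%), against 23.6%. In the same fit over the 7241 varying probe sets alone, 2 of the 24 varying genes passed (8.33%, against 6.85% of the varying probe sets, 2.29% higher and 4.56% lower). Both fell: Vamp7, a SNARE of late endosomes and lysosomes, and Uvrag, a subunit of the lipid kinase complex. Without medium-alone replicate 1 or 2 the count was 0, where 2.15% and 2.53% of the varying probe sets passed. Without fragment replicate 1 or 2 it was also 0 (1.93% and 1.78%). Without fragment replicate 3 it was 1 (Uvrag, 4.39%), and without medium-alone replicate 3 it was 2 (12.1%).

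The 24 varying genes were not shifted to one side. Their median log2 fold change was 0.00289, beside -0.00345 over all varying probe sets, with 14 genes above 0 and 10 below. The median size of the difference was 0.109 log2 units, against 0.0962 over the varying probe sets. In 8 of the 24 (33.3%) the 3 fragment arrays lay wholly above or below the 3 arrays of medium alone, and the same held for 32.0% of the varying probe sets. Of these 8 genes, 6 were lower and 2 higher with fragments, against 17.4% and 14.7% of the varying probe sets in each direction. A difference of at least 1.5-fold (0.58 log2 units) was seen in 1 gene, Vamp7. These directions hold for the deposited scale. A second scale aligned the arrays on their hybridisation spikes, control transcripts of the array maker. On this spike scale all differences moved up by 0.262 log2 units and 22 of the 24 genes stood above 0, all except Vamp7 and Uvrag. There 4 of the 24 passed in limma (Atg1, Atg18a and Epg5 higher, Vamp7 lower), where 20.6% of the varying probe sets did, and over all probe sets 6 of 31 passed, where 8.98% did. Every probe set of an array takes the same offset on this scale. Over all probe sets the limma adjusted p there followed the size of the difference more than a gene's own replicate spread. A flat gene such as Atg9 stood at 0.26 (0.0737). Atg18a and Epg5 stood at 0.56 and 0.54 (0.00122 and 0.00195), with SDs of medium alone of 0.115 and 0.202 as deposited.

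**Figure D1:**
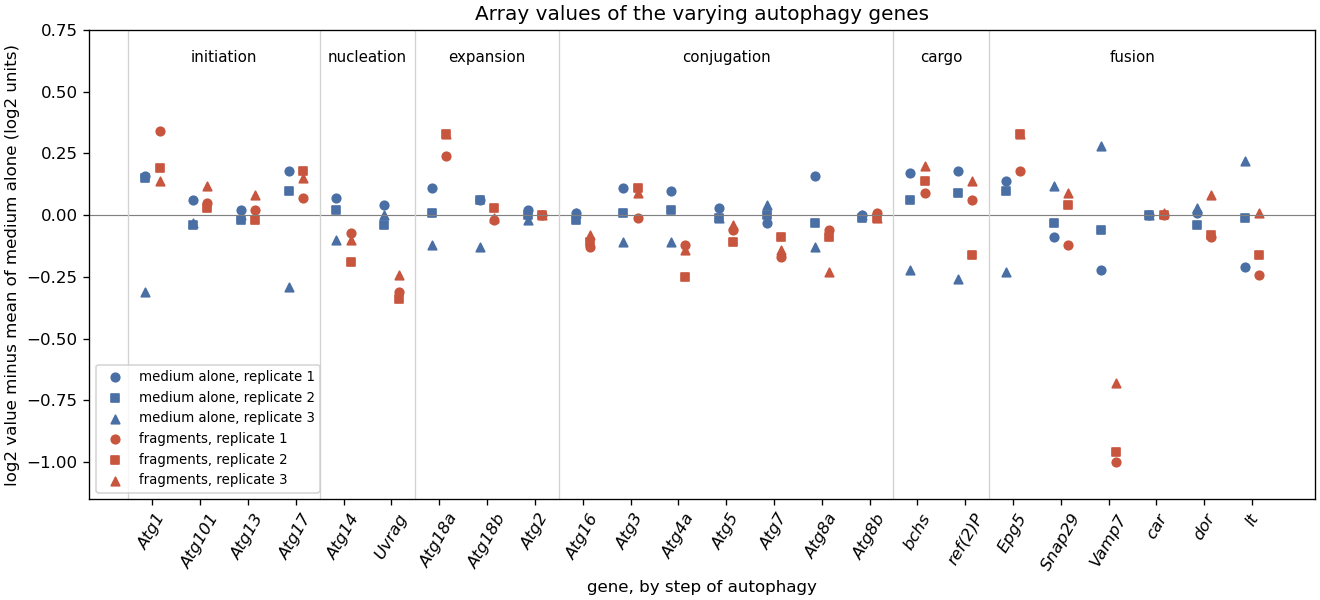
Log2 values of the 24 varying autophagy genes on each array (y axis), given as the difference from the gene's mean in medium alone; genes are ordered by step (x axis), colours show the group and symbols the replicate. The 3 fragment values of Vamp7 lie far below its 3 values of medium alone, while for 16 genes the groups overlap.

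One control array stood apart. Over the varying probe sets replicates 1 and 2 correlated at 0.9986, and replicate 3 with them at 0.9793 and 0.9807. In 16 of the 24 varying genes (66.7%) replicate 3 lay farther from the mean of replicates 1 and 2 than these lay apart, as in 75.6% of the varying probe sets. Replicate 3 was the lowest array of medium alone for 14 genes and the highest for 7. Of 15 measured hemocyte markers 11 varied. The summed linear signal of the 15 was 17900 to 20500 in medium alone and 19200 to 20100 with fragments. Nplp2, the highest of them with mean log2 values of 13.23 and 13.24, weighed most in this sum. Among the hemocyte markers the receptor gene crq fell by 0.80 on the log2 scale (limma adjusted p = 0.00559 among the varying probe sets), while ush, higher by 0.63, did not pass (0.256). The markers NimC1, Sr-CI, PPO1 and lz were flat, as were all 4 measured markers of muscle and all 4 of fat body. The neuronal marker elav varied, and the summed neuronal signal was 389 to 534 in medium alone and 508 to 552 with fragments. The summed signal of 3 germline markers was 298 to 329 and 386 to 444, where bam alone was higher, by 0.91 log2 units (limma adjusted p = 0.0224 among the varying probe sets), vas differed by -0.08 and piwi was flat. The summed signal of 3 gut markers was 172 to 213 and 212 to 283, with esg higher by 0.84 (limma adjusted p = 0.236) and the others flat. The part of these shifts in the results was not tested. RNA or cycloheximide brought in with the fragments cannot be told apart from a response of the phagocytes, and fewer cells of a type cannot be told apart from less RNA per cell.

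The fusion step held the largest difference. Vamp7 forms the SNARE bundle that joins autophagosome and lysosome in Drosophila, together with Syx17 and Snap29. Its log2 values were 10.19, 10.35 and 10.69 in medium alone and 9.41, 9.45 and 9.73 with fragments. Every fragment array was below every array of medium alone, and replicate 3 was the highest array in both groups. The mean went from 10.41 ± 0.254 (SD, n = 3) to 9.53 ± 0.172, a 1.84-fold lower signal. The log2 fold change was -0.88 with an SE of 0.175 in the limma fit over all probe sets (adjusted p = 0.228) and passed among the varying probe sets (adjusted p = 0.0359). With 1 array left out it lay between -0.99 and -0.74, and among the varying probe sets the limma adjusted p lay between 0.0227 and 0.142. On the spike scale it was -0.62.

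The partner SNARE gene did not separate the groups. Snap29, a SNARE that supplies helices to the same bundle, read 9.40, 9.46 and 9.61 in medium alone and 9.37, 9.53 and 9.58 with fragments. The groups overlapped, and the 95% interval of the log2 difference was -0.20 to 0.21. Whether Vamp7 and Snap29 differ in their response was not tested.

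Epg5 is a tether that gives autophagosome fusion its specificity, as known from worms and mammals. It read 7.99, 7.95 and 7.62 in medium alone and 8.03, 8.18 and 8.18 with fragments. Every fragment array was above every array of medium alone, but the gap between the groups was small and replicate 3 of medium alone stood apart. The log2 fold change was 0.28 (limma adjusted p = 0.56 over all and 0.215 among the varying probe sets). Without medium-alone replicate 3 it was 0.17.

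The remaining fusion genes encode subunits of the HOPS tethering complex, known from Drosophila eye colour mutants. The genes car (Vps33A) and dor (Vps18) had log2 fold changes of 0.00 and -0.03, with 95% intervals of -0.06 to 0.07 and -0.17 to 0.12. The values of car spanned 0.0115 log2 units over the 6 arrays, just above the limit for a flat probe set. Its interval therefore says little about a change. The third, lt (Vps41), read 9.19, 9.39 and 9.62 in medium alone and 9.16, 9.24 and 9.41 with fragments. In all of them the groups overlapped, and for lt the log2 fold change of -0.13 was smaller than the SD of medium alone, 0.216.

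In the nucleation step the difference lay in Uvrag. Uvrag and Atg14 are alternative subunits of the Pi3K59F complex: Atg14 directs it to autophagosome formation, and the Uvrag form acts in endocytic traffic. Uvrag read 7.72, 7.64 and 7.68 in medium alone and 7.37, 7.34 and 7.44 with fragments. The groups were well separated, and the arrays within each lay close together. The mean went from 7.68 ± 0.0397 (SD, n = 3) to 7.38 ± 0.0494, a 1.23-fold lower signal. The log2 fold change was -0.30 with an SE of 0.036 (limma adjusted p = 0.107 over all and 0.0186 among the varying probe sets). With 1 array left out the difference stayed between -0.32 and -0.27, and the limma adjusted p among the varying probe sets lay between 0.0239 and 0.0904. On the spike scale the difference was -0.03 and did not pass (limma adjusted p = 0.818 over all and 0.867 among the varying probe sets).

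Atg14 read 8.74, 8.69 and 8.57 in medium alone and 8.60, 8.48 and 8.57 with fragments. The groups overlapped through replicate 3 of medium alone, and the log2 fold change of -0.12 did not pass (limma adjusted p = 0.635). The catalytic subunit gene Pi3K59F, the gene of its regulatory partner Vps15 and Atg6, the Drosophila Beclin, were flat. The difference between Uvrag and Atg14 was not tested.

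**Figure D2:**
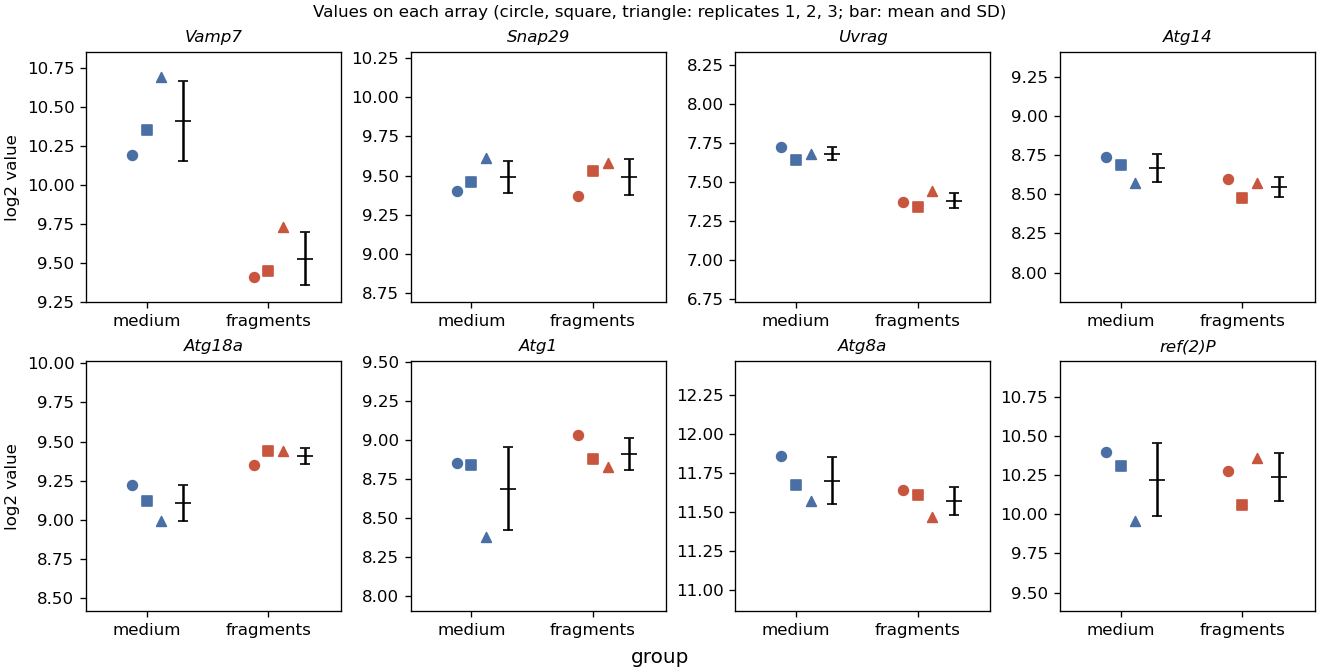
Log2 values (y axis) of 8 autophagy genes on each array of medium alone and of fragments (x axis); circles, squares and triangles are replicates 1, 2 and 3, bars show the mean and SD, and each panel spans the same number of log2 units. Vamp7, Uvrag and Atg18a have groups that do not overlap; Snap29, Atg14, Atg1, Atg8a and ref(2)P have groups that do.

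In the initiation complex the groups overlapped in all 4 genes, and none passed on the deposited scale. On the spike scale Atg1 and Atg17 differed by 0.49 and 0.40 and passed over all probe sets (limma adjusted p = 0.00775 and 0.0473). As said above, a p on that scale says little of their own replicate spread. Atg1, the kinase that starts autophagosome formation, read 8.85, 8.84 and 8.38 in medium alone and 9.03, 8.88 and 8.83 with fragments. The low array of medium alone, replicate 3, weighed on the difference: the log2 fold change was 0.22 with all arrays (limma adjusted p = 0.734) and 0.07 without that array. Atg17, the fly counterpart of the scaffold FIP200, read 6.93, 6.85 and 6.46 in medium alone and 6.82, 6.93 and 6.90 with fragments. Its log2 fold change was 0.14 with all arrays and -0.01 without replicate 3 of medium alone. Atg13, the regulatory subunit, and Atg101, its partner, differed by 0.03 and 0.07, with 95% intervals of -0.07 to 0.12 and -0.05 to 0.18.

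Among the genes of membrane expansion the difference lay in Atg18a. Its product is a WD-repeat protein that binds phosphatidylinositol 3-phosphate on the growing membrane. It read 9.22, 9.12 and 8.99 in medium alone and 9.35, 9.44 and 9.44 with fragments. The groups did not overlap, with the highest control array close to the lowest fragment array. The mean went from 9.11 ± 0.115 (SD, n = 3) to 9.41 ± 0.0505, a 1.23-fold higher signal. The log2 fold change of 0.30 did not pass as deposited (limma adjusted p = 0.294 over all and 0.0665 among the varying probe sets). After quantile normalization it was 0.31 and passed among the varying probe sets (limma adjusted p = 0.0438), where 7.50% of them did. The probe set of Atg18a carries the s_at suffix, used by the manufacturer for probes that can match transcripts of more than 1 gene.

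The paralogue Atg18b had a log2 fold change of 0.00 with a 95% interval of -0.15 to 0.16. Atg2, a lipid transfer protein that works with Atg18, also differed by 0.00, with an interval of -0.07 to 0.07. The probe set of Atg9, the transmembrane scramblase of the pathway, was flat. The difference between Atg18a and Atg18b was not tested.

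The conjugation genes whose groups separated were all lower with fragments on the deposited scale, by small amounts that did not pass. Of 10 genes, 7 varied, and in 4 of them, Atg4a, Atg5, Atg7 and Atg16, every fragment array was below every array of medium alone, as in 17.4% of the varying probe sets. Atg7, the E1-like enzyme of both conjugation systems, read 8.49, 8.52 and 8.56 in medium alone and 8.35, 8.43 and 8.38 with fragments. Its log2 fold change was -0.14 (limma adjusted p = 0.238 over all and 0.0884 among the varying probe sets). Atg16, which positions the Atg5 and Atg12 conjugate on membranes, read 8.87, 8.84 and 8.87 in medium alone and 8.73, 8.75 and 8.78 with fragments. Its log2 fold change was -0.10 (limma adjusted p = 0.201 and 0.114).

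Atg4a, a protease that trims Atg8 and frees it from lipid, read 8.98, 8.90 and 8.77 in medium alone and 8.76, 8.63 and 8.74 with fragments. The gap between the groups was narrow, and the log2 fold change was -0.17 (limma adjusted p = 0.534 and 0.215). Atg5, the acceptor of Atg12, read 7.70, 7.66 and 7.66 against 7.61, 7.56 and 7.63, with a log2 fold change of -0.07 (limma adjusted p = 0.426 and 0.269). On the spike scale these 4 differences turned positive, between 0.09 and 0.19. Each of the 4 was smaller than the 0.262 log2 units that this scale adds.

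Atg8a, the ubiquitin-like protein that is attached to the autophagosome membrane, read 11.86, 11.67 and 11.57 in medium alone. With fragments it read 11.64, 11.61 and 11.47. The groups overlapped, and the log2 fold change was -0.13 with a 95% interval of -0.35 to 0.10 (limma adjusted p = 0.754 over all probe sets). The second Atg8 gene, Atg8b, known for its expression in the testis, read between 6.41 and 6.43 on every array. Atg3, the E2-like enzyme of Atg8, had a log2 fold change of 0.06, and the probe sets of Atg4b, Atg10 and Atg12 were flat.

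The cargo genes did not separate the groups. The p62 homologue ref(2)P, which binds ubiquitinated cargo and is itself degraded by autophagy as a protein, read 10.40, 10.31 and 9.96 in medium alone. With fragments it read 10.28, 10.06 and 10.36. Both groups held a low array, and the log2 fold change was 0.02 with a 95% interval of -0.34 to 0.37. The gene bchs, which encodes the BEACH protein Blue cheese, a scaffold for aggregates, read 7.26, 7.15 and 6.87 against 7.18, 7.23 and 7.29. Its log2 fold change was 0.14, and 0.03 without medium-alone replicate 3.

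**Figure D3:**
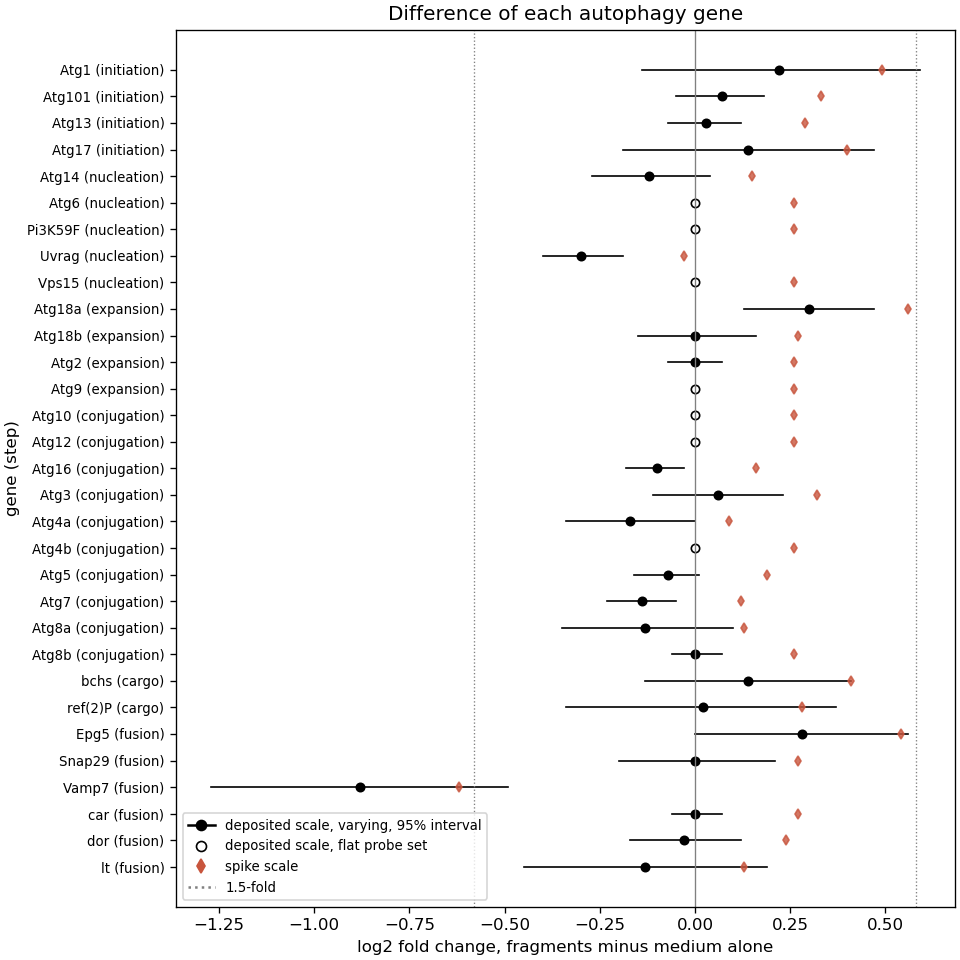
Log2 fold change (x axis, fragments minus medium alone) of the 31 autophagy genes (y axis), with 95% intervals from the limma fit over varying probe sets; open circles are flat probe sets, diamonds the value on the spike scale, and dotted lines mark 1.5-fold. The interval lies inside the dotted lines for 22 of the 24 varying genes, with Vamp7 and Atg1 reaching past them.

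How large a change the arrays could have missed was read from the intervals. For 22 of the 24 varying genes the 95% interval of the difference, not adjusted for the number of genes, lay inside 1.5-fold in either direction on the deposited scale. The same held for 76.0% of the varying probe sets. Some of the genes, such as car, were nearly flat, and their intervals say little. With a range of at least 0.1 counted as varying, 21 genes remained. The exceptions were Vamp7, whose interval of -1.27 to -0.49 lay below 0, and Atg1, whose interval of -0.14 to 0.59 reached just past 1.5-fold. On the spike scale all values move up by 0.262, so these bounds apply to change relative to the bulk of the probe sets.

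The balance of directions moved with the array left out. Without medium-alone replicate 3, 11 of the 24 genes had groups that did not overlap, 9 of them lower with fragments and 2 higher, where 43.8% of the varying probe sets separated and 24.6% did so downward. Without medium-alone replicate 1 it was also 11, 5 higher and 6 lower (40.4% of the varying probe sets), and without fragment replicate 2 it was 10, 4 higher and 6 lower (38.3%). The genes added without medium-alone replicate 3 were Atg8a, Atg14 and Atg18b, with log2 fold changes of -0.19, -0.16 and -0.06. The sign turned in 4 genes, Atg17, Atg18b, Atg2 and ref(2)P, each with a difference between -0.12 and -0.01 without that array. Vamp7 and Uvrag were again the genes that passed among the varying probe sets (limma adjusted p = 0.0227 and 0.0239), where 12.1% of the varying probe sets passed.

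**Figure D4:**
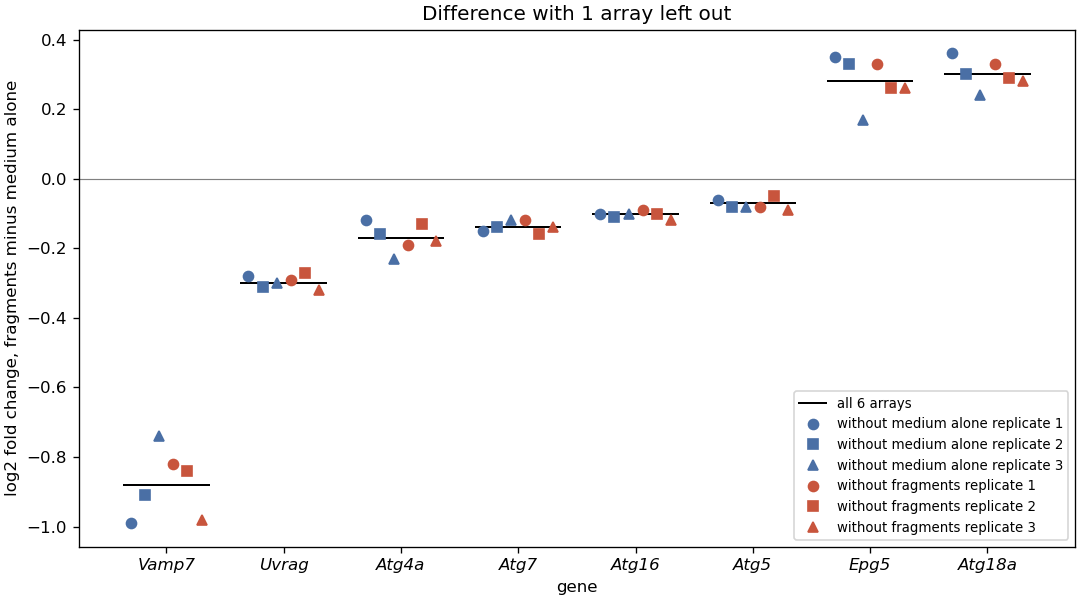
Log2 fold change (y axis, fragments minus medium alone) of the 8 autophagy genes whose groups did not overlap (x axis), with all 6 arrays (line) and with each array left out (symbols). The direction is the same in every case; Vamp7 ranges from -0.99 to -0.74 and Epg5 from 0.17 to 0.35.

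Other genes that act on autophagy were read from lists that do not contain the 31 genes. In the fit over all probe sets 0 of the 77 measured genes passed in limma. Of the 77, 53 varied, and 14 of these had an unadjusted p under 0.05 in the fit over the varying probe sets, where 23.6% of all varying probe sets did. In that fit 3 of the 5 lists had 1 gene that passed each, where 6.85% of the varying probe sets passed. Of 17 lysosome proteins and hydrolases, 15 varied and 1 rose. It was Mitf, the Drosophila counterpart of TFEB, a transcription factor for lysosome and autophagy genes. Mitf read 6.75, 6.93 and 6.78 in medium alone and 7.64, 7.64 and 7.75 with fragments. The groups lay far apart, with a log2 fold change of 0.86 (limma adjusted p = 0.0553 over all and 0.00367 among the varying probe sets).

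Of 16 other late endosome and fusion genes, 8 varied and 1 fell, lsn, which encodes an ESCRT-II subunit. Its values were 7.83, 7.81 and 8.32 in medium alone and 7.07, 7.25 and 7.21 with fragments. The log2 fold change was -0.81 (limma adjusted p = 0.243 over all and 0.0426 among the varying probe sets). Replicate 3 of medium alone lay above replicates 1 and 2 and added to the difference, whose value without that array is not given. Of 17 other genes of autophagosome formation and its regulation, 13 varied and 1 fell, the histone deacetylase gene HDAC1, by 0.44 on the log2 scale (limma adjusted p = 0.226 over all and 0.0389 among the varying probe sets). In these lists too, differences were small in the middle, with medians of -0.01, -0.02 and 0.11 over their varying genes.

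The genes of nutrient and energy signalling to autophagy gave 0 calls in limma. Of 18 measured, 11 varied, 2 of them with an unadjusted p under 0.05 among the varying probe sets, with a median log2 fold change of 0.18. REPTOR, a transcription factor held back by TORC1, read 8.70, 8.67 and 8.20 in medium alone and 9.50, 9.07 and 9.37 with fragments. Sesn, which encodes sestrin, an inhibitor of TORC1, read 8.91, 8.92 and 8.45 against 8.18, 8.26 and 8.03. The groups did not overlap in either gene, but the differences of 0.79 and -0.60 did not pass (limma adjusted p = 0.0664 and 0.079 among the varying probe sets). Of 9 mitophagy and selective autophagy genes 6 varied and 0 passed in limma, with 1 at an unadjusted p under 0.05 among the varying probe sets. That 1 was the mitophagy receptor gene BNIP3, which differed by -0.19 (limma adjusted p = 0.108 among the varying probe sets). The next smallest p there was that of cnc, the fly Nrf2, which differed by 0.24 (limma adjusted p = 0.319).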

How the data were processed

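RNA of 6 S2 cultures was labelled as biotinylated cRNA from 150 ng of total RNA and hybridised to Affymetrix arrays, per the labels' protocols. The authors deposited log2 values per probe set. The submitters' processing notes name R 2.7.2; the sources used here do not give the summary of probes or the normalization of arrays. The values were used as deposited after 183 control probe sets were left out. Arrays have no read depth, so their number limits the precision. Groups came from the sample titles, which call replicates biological.

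Gene symbols came from the array annotation, and the gene identifiers of all 31 autophagy genes matched the RefSeq table (Release 6). No coordinates or sequences were used here.

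The test was limma 3.58.1 under R 4.3.3 (lmFit and eBayes, two-sided, Benjamini-Hochberg adjustment), called at an adjusted p under 0.05. The fit over all 18769 probe sets was the main one. Flat probe sets drew its prior SD to 4.38e-09 with 0.123 prior degrees of freedom, so it was repeated over the 7241 varying probe sets (0.0612 and 1.36). Both fits were tested on simulated data. The genes, steps, lists and tests were chosen with earlier results of these data known. Named were all autophagy genes, with array values for those that separated the groups or passed, and of each other list the genes that passed or else the 2 of smallest p among the varying probe sets. Array values of other autophagy genes and of Mitf, lsn, REPTOR and Sesn were added for comparison. Alternatives were quantile normalization, the spike scale (18 spike probe sets), probe sets with a suffix such as a_at or s_at left out, and the mean over a gene's probe sets. Others were trend and robust eBayes, a range of 0.1, a replicate block and each array left out.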

Additional observations from a re-analysis of the deposited data

How the results depend on the processing

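Over all probe sets, the count of autophagy genes that passed was 0 under every alternative run except the spike scale. In the replicate block, and without medium-alone replicate 1 or 2 or fragment replicate 2, 0 of all tested probe sets passed. The count of 0 was therefore fixed in those runs. Without fragment replicate 1 only 1 tested probe set passed, and without replicate 3 of either group 8 did. On the spike scale the count was 6 (Atg1, Atg17, Atg18a, bchs and Epg5 higher, Vamp7 lower), where 8.98% of all tested probe sets passed. There the p followed the size of the difference more than a gene's own replicate spread. Among the varying probe sets the count of 2 became 4 on the spike scale, where 20.6% of the varying probe sets passed, and 3 after quantile normalization (7.50%). It was 1 of 18 genes when probe sets with a suffix such as a_at or s_at were left out (6.8%). That of Vamp7 was left out for its a_at suffix, which is not the s_at suffix described for Atg18a. With 1 array left out the count ranged from 0 to 2, where 1.78% to 12.1% passed. The number of genes whose groups did not overlap was 8 of 24, where 32.0% of the varying probe sets separated. It was 4 of 18 without the probe sets of those suffixes, of which 6 belong to autophagy genes. The share over the other probe sets is not given for that run, so the count cannot be set against it. With 1 array left out the number ranged from 8 to 11. The share over the varying probe sets was 43.8% without medium-alone replicate 3, 40.4% without medium-alone replicate 1 and 38.3% without fragment replicate 2. It is not given for the other arrays. The median log2 fold change of the 31 genes was 0 and became 0.262 on the spike scale. On that scale the differences of Atg16, Atg4a, Atg5 and Atg7 turned to 0.16, 0.09, 0.19 and 0.12, by the shift that the scale adds to every probe set. The mean over a gene's probe sets changed nothing, as each gene had 1. The replicate block left 0 and 2 genes passing, where 0 of all tested probe sets and 6.2% of the varying probe sets passed. Same-numbered arrays deviated from their group means with correlations of 0.442, 0.0381 and 0.375 over the varying probe sets, and not every array correlated best with its own number, so the numbers were not taken as pairs. Each group held 3 arrays. The small differences of Atg16, Atg4a, Atg5 and Atg7 passed on neither scale, and flat probe sets limit the reading of 7 genes.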
